A study of Mus musculus with 12 samples.

Results

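Genes that mark vascular endothelial cells were followed here in explants of the mouse retina. They are Pecam1, Cdh5, Cldn5, Kdr, Tek, Tie1, Flt1, Emcn, Esam and Egfl7. They were chosen by name for their known place in endothelial cells, with earlier results of these data known. Each matched 1 identifier, so that 10 of the 53707 genes in the deposited gene table are described. Retinas of wild-type C57BL/6J mice at 28 days of age (P28), stripped of sclera and retinal pigment epithelium, were kept for 48 hours in Neurobasal-A medium with 5 mM or 25 mM glucose, and total RNA was sequenced to ask how glucose availability affects gene expression. Each concentration had 3 biological replicates with 2 technical replicates each, 12 libraries in all, and both groups carried the same genotype and the same medium supplements. The first technical replicates form batch 1 and the second ones batch 2, so a batch and the order of a technical replicate cannot be told apart. The labels do not say at which step a technical replicate was split off, nor how many retinas or mice went into a biological replicate. An explant has no blood flow, and whether its vessels were kept over the culture was not measured.

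The endothelial lining of retinal vessels seals the inner blood-retina barrier. Neighboring cells are held together by adherens and tight junctions, built from VE-cadherin, PECAM1, claudin-5 and ESAM. Their growth and survival depend on VEGF, read by the receptor tyrosine kinases VEGFR2 (Kdr) and VEGFR1 (Flt1), and their quiescence on angiopoietins, read by TIE2 (Tek) and its co-receptor TIE1. VEGFR1 binds VEGF tightly but signals weakly, and a secreted form without the membrane anchor acts as a trap for the ligand.

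The full-length and the secreted Flt1 transcripts share their first 1972 coding bases and then part, so the counts of the 2 forms can be told apart over the sequence that follows. In the GENCODE M21 annotation of GRCm38, Flt1 lies on the minus strand at chr5:147561604-147726011. The shared exon ends at position 147639225. The soluble transcript reads on into the intron behind it as far as position 147639133, where its coding sequence stops after 2064 bases, while the full-length coding sequence of 3999 bases continues in the next exon, at chr5:147634432-147634523. The last 30 shared coding bases are printed in lower case and the 92 coding bases that follow in each form in capitals.
Soluble form, chr5:147639133-147639254, minus strand: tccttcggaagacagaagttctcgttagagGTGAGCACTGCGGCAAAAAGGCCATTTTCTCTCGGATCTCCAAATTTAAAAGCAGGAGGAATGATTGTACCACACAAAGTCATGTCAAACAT
Full-length form, minus strand: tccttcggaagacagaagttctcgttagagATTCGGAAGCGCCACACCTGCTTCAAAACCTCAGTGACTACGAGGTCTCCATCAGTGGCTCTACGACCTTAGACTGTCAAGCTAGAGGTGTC

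The stretches upstream of 3 receptor genes are shown because these genes stood at different places in the glucose comparison: Tie1 with the largest difference of the 10 genes, Flt1 with the smallest among the other genes whose replicates were apart, and Kdr with almost none. RefSeq starts on GRCm38.p6 were at hand for 7 of the 10 genes (Egfl7, Emcn, Tek, Tie1, Kdr, Flt1 and Cldn5) in 9 windows of 250 bases, 3 of them from Egfl7. Capitals mark 2 forms of the core bound by ETS transcription factors, CGGAAG and AGGAAG, on either strand. The endothelial factors ERG and FLI1 belong to this family. Other forms were not searched for, and the shorter GGAA also occurs in the printed window of Kdr.
Tie1, chr4:118489850-118490099, minus strand: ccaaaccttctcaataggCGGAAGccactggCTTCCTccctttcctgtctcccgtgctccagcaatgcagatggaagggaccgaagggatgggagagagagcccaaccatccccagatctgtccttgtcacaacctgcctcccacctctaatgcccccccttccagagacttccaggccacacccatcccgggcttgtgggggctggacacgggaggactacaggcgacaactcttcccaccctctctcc
Flt1, chr5:147726012-147726261, minus strand: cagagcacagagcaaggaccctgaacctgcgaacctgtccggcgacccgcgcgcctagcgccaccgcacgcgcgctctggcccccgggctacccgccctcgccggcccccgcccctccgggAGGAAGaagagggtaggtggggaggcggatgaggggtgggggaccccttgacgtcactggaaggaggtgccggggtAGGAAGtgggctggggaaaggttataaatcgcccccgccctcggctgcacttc
Kdr, chr5:75978456-75978705, minus strand: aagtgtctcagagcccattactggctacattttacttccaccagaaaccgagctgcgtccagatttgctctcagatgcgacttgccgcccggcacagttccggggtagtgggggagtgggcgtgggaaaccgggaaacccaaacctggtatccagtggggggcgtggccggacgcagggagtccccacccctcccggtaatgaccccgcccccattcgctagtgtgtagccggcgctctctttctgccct
These forms were found 2 times upstream of Tie1, starting at -232 and -219 relative to the RefSeq start. Flt1 had 2 matches, at -129 and -53, and the window of Kdr had 0. Among the 9 windows 5 held a match, from 4 genes: Egfl7, Emcn, Tie1 and Flt1. The windows of Cldn5 and Tek, whose log2 fold changes with glucose were -2.20 and -1.38, held 0 as well. Of all 32841 RefSeq windows of the same length 39.2% held a match to these forms. The GC box GGGCGG, searched on both strands, occurred 2 times upstream of Kdr and 3 times upstream of Flt1, and in 32.7% of all windows. A TATAAA was present upstream of Flt1, as in 12.4% of all windows. The matches of different motifs did not overlap in the 3 printed windows. They describe letters only.

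All 10 genes were expressed in cultured retina and passed the filter on low counts, in libraries of 14815285 to 36692484 estimated counts. Values are given in CPM (counts scaled to a common library size), from library totals and TMM factors. Levels of different genes can be set beside each other only per length, as CPM per kilobase of transcript. On that scale at 5 mM glucose Emcn, the sialomucin endomucin, stood highest with 162.3 ± 24.1 (SD, n = 3), followed by Egfl7, which encodes a secreted protein of the vessel wall, with 156.5 ± 50.6, and Pecam1 with 150.7 ± 51.9. These 3 levels differed by less than their spread. Counts of each transcript were divided by its own length, and many Egfl7 counts lay on short transcripts. Egfl7-203, of 521 bases, held 16.9% of them at 5 mM, so the place of Egfl7 in this order is uncertain. Esam followed with 76.1 ± 32.9, Cdh5 with 73.0 ± 33.3, Cldn5 with 39.5 ± 24.6, Kdr with 37.3 ± 5.14, Flt1 with 37.1 ± 7.15, Tek with 32.9 ± 7.98 and Tie1 with 20.3 ± 11.4, and neighbors in this order were further apart than the larger of their SDs only for Pecam1 and Esam, Cdh5 and Cldn5, and Tek and Tie1. At 25 mM glucose the per-length level of Kdr, 37.7 ± 3.30, came behind only Emcn with 70.2 ± 44.3, Egfl7 with 66.0 ± 41.8 and Pecam1 with 40.5 ± 25.3, whereas Tie1 stayed last with 3.29 ± 2.33.

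The comparison of 25 mM with 5 mM glucose asked whether endothelial transcripts changed with glucose. In 9 of the 10 genes the mean level at 25 mM was 1.81 to 6.36 times lower than at 5 mM, and Kdr, with the same level at both, was the exception. The median log2 fold change of the 10 genes was -1.54, beside -0.0095 over all 21061 genes tested. No gene passed an FDR under 0.05 in the quasi-likelihood test of edgeR (0 of 10), where 0.513% of all genes were called lower, and the same count of 0 held at the stricter limit of FDR under 0.01 with a fold change over 2, which 0% of all genes passed in this direction. At an unadjusted p under 0.05, 9 of the 10 were lower, against 15.5% of all genes. A log2 fold change under -1 was seen in 8 of 10, against 9.27%. In 7 of 10, every replicate at 25 mM lay below every replicate at 5 mM, which was the case for 15.8% of all genes. The 10 genes were chosen with earlier results known, so these counts describe them and do not test them as a set. DESeq2 called 8 of the 10 lower and 9.54% of all genes, and limma-voom called 0 of the 10 and 0.565% of all genes. In bulk tissue fewer endothelial cells and less RNA per cell cannot be told apart, and p-values measure only the spread between these replicates.

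**Figure D1:**
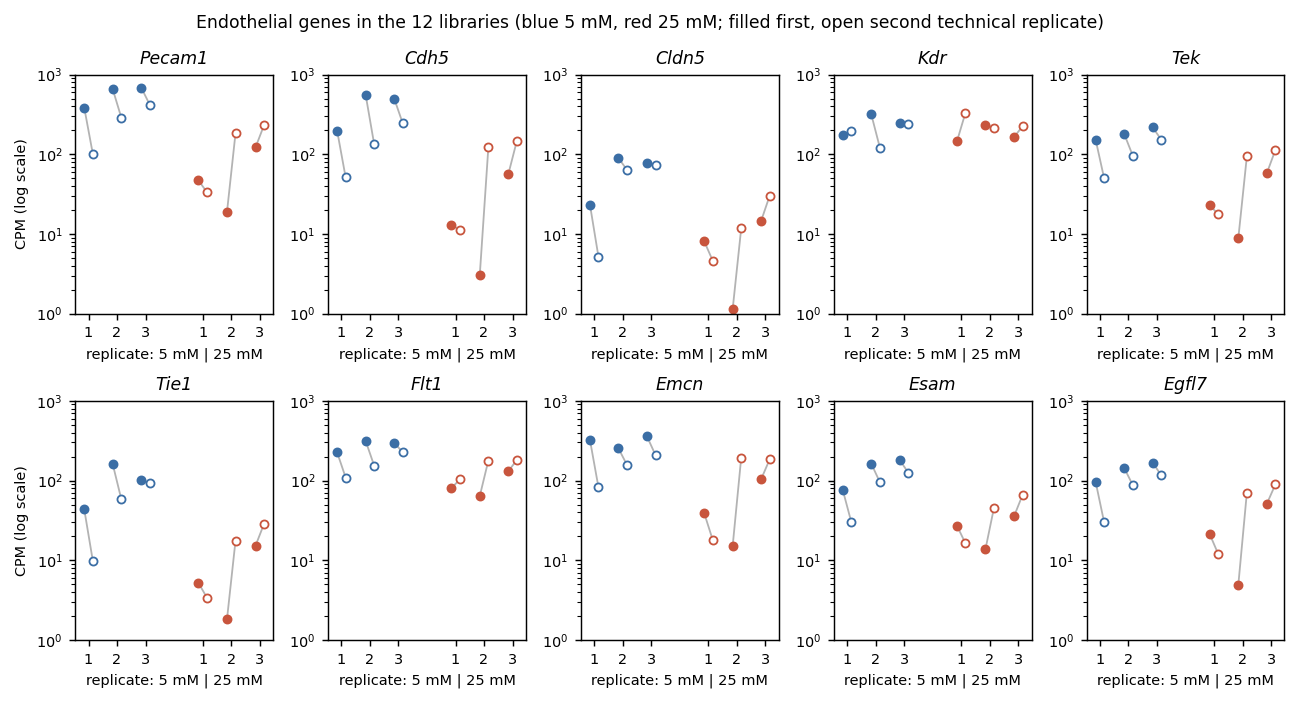
CPM on a log axis of the 10 genes in the 12 libraries, by biological replicate (5 mM left, blue; 25 mM right, red). Filled points are first and open points second technical replicates, joined by a grey line. In 9 genes the red points lie mostly below the blue ones, and the gap is wider among filled than among open points; Kdr stays between 121 and 332 CPM in all libraries.

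Among the junction genes, Pecam1 (chr11:106654217-106750628, minus strand), an adhesion molecule at endothelial borders, was measured at 269, 495 and 546 CPM in the 3 replicates at 5 mM and at 39.3, 119 and 182 CPM at 25 mM. The groups were apart, with the first replicate lowest in each. Its log2 fold change was -1.94 ± 0.51 (SE), with an adjusted p of 0.0732 in edgeR's quasi-likelihood test. Cdh5 (chr8:104101625-104144511, plus strand), which encodes VE-cadherin, the cadherin of endothelial adherens junctions, had 139, 375 and 369 CPM at 5 mM and 11.8, 75.9 and 106 CPM at 25 mM. Again the groups were apart and the first replicates lowest. Its log2 fold change was -2.19 ± 0.71 (adjusted p = 0.0999, edgeR).

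Cldn5 (chr16:18776847-18778262, plus strand), the main claudin of endothelial tight junctions, had 16.0, 78.6 and 75.6 CPM at 5 mM and 6.28, 7.55 and 23.2 CPM at 25 mM. The groups overlapped through the first replicate at 5 mM, which lay under the third at 25 mM. The log2 fold change was -2.20 ± 0.68 (adjusted p = 0.092, edgeR). Esam (chr9:37528078-37538319, plus strand), an immunoglobulin-type adhesion molecule of tight junctions, had 57.7, 134 and 152 CPM at 5 mM and 21.2, 33.1 and 52.2 CPM at 25 mM. These values did not overlap, and the log2 fold change was -1.69 ± 0.42 (adjusted p = 0.0681, edgeR).

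The values of the 2 VEGF receptors were unlike, a difference that was not tested. Kdr (chr5:75932827-75978458, minus strand) had 186, 232 and 242 CPM at 5 mM and 231, 216 and 198 CPM at 25 mM. The values of the 2 groups lay within each other, and the log2 fold change was -0.03 ± 0.17 (adjusted p = 0.915, edgeR), a sign that turned to +0.02 with library totals in place of TMM. Flt1 had 180, 246 and 262 CPM at 5 mM and 89.1, 132 and 159 CPM at 25 mM. Its groups did not overlap, and its log2 fold change was -0.85 ± 0.25 (adjusted p = 0.0838, edgeR). Of the counts given to Kdr transcripts, the coding transcript Kdr-201 held 98.5% at 5 mM and 95.8% at 25 mM, so nearly all Kdr counts were assigned to the coding transcript.

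Of the angiopoietin receptors, Tek (chr4:94739289-94874976, plus strand) had 111, 145 and 184 CPM at 5 mM and 19.8, 61.0 and 88.2 CPM at 25 mM, without overlap. Its log2 fold change was -1.38 ± 0.47 (adjusted p = 0.109, edgeR). Tie1 (chr4:118471191-118490061, minus strand) had 29.8, 116 and 97.9 CPM at 5 mM and 4.22, 11.5 and 22.5 CPM at 25 mM. The lowest value at 5 mM lay above the highest at 25 mM, and its log2 fold change of -2.67 ± 0.66 was the largest of the 10 in size (adjusted p = 0.0673, edgeR).

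Emcn (chr3:137341067-137432185, plus strand), a surface mucin found mostly on veins and capillaries, had 226, 212 and 281 CPM at 5 mM and 28.2, 124 and 149 CPM at 25 mM, without overlap. Its log2 fold change was -1.26 ± 0.51 (adjusted p = 0.15, edgeR). Egfl7 (chr2:26580014-26593120, plus strand), the host gene of the endothelial microRNA miR-126, had 69.7, 120 and 142 CPM at 5 mM and 16.2, 45.1 and 72.2 CPM at 25 mM. At 25 mM only the third replicate reached the range at 5 mM, and the log2 fold change was -1.31 ± 0.49 (adjusted p = 0.131, edgeR). Exons of Egfl7 share 264 bases with Gm20532 on the same strand and 64 bases with Agpat2 on the other strand, besides the Mir126 hairpins, so its counts are uncertain. Its retained-intron transcripts Egfl7-214 and Egfl7-213 held 15.9% and 13.1% of its transcript counts at 5 mM and 16.7% and 13.9% at 25 mM, and the coding transcript Egfl7-212 held 17.8% at 5 mM and 3.73% at 25 mM, which was not tested. None of the other 9 genes shared exon bases with another annotated gene.

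**Figure D2:**
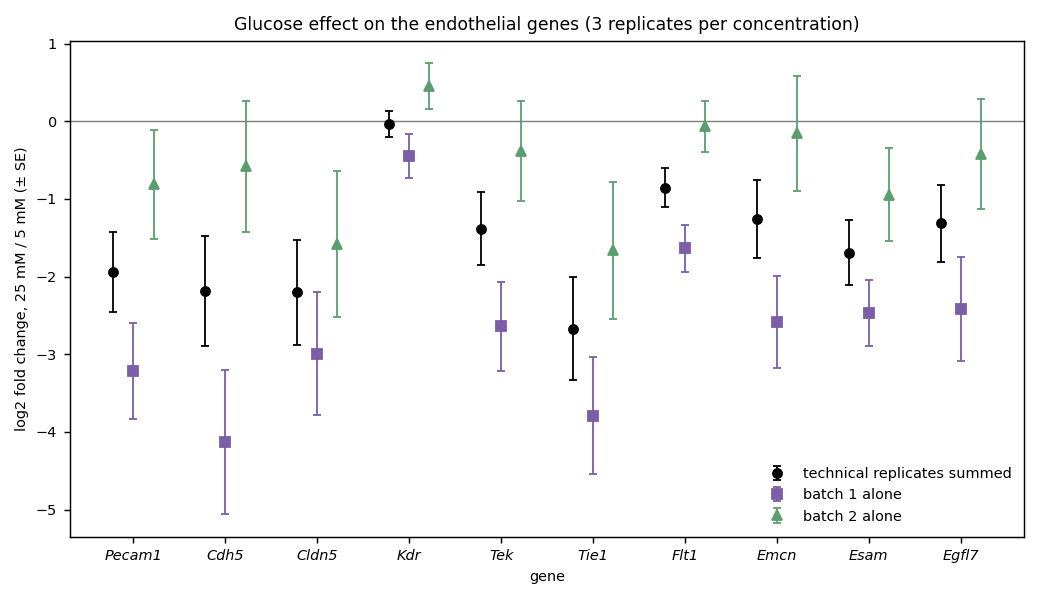
Log2 fold change (25 mM over 5 mM, ± SE) of each gene from the summed technical replicates (black circles) and from batch 1 (purple squares) and batch 2 (green triangles) alone, 3 replicates per concentration. The summed values run from -2.67 for Tie1 to -0.03 for Kdr, and every batch 1 value lies below the batch 2 value of the same gene.

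Leaving out libraries moved these calls. Without the first biological replicate at 5 mM, 7 of the 10 genes were called lower at an FDR under 0.05, as were 14.9% of all genes, and without only its second library 4 of 10, as were 4.04%. Without the third replicate at 25 mM 0 of 10 were called, as were 0.946% of all genes. Leaving out the second or the third replicate at 5 mM, the first or the second at 25 mM, or only the first library of the second at 25 mM, left 0 of the 10 genes and 0% of all genes called, so these settings say nothing of the 10 genes. The median log2 fold change over the 10 genes stayed between -1.97 and -1.19 when each biological replicate was left out in turn.

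The 2 technical replicates of a biological replicate often lay far apart in these genes. The SD between the 2 technical replicates of a biological replicate had a median of 1.21 on the log2 scale over the 10 genes and 0.39 over all genes. The SD between biological replicates of summed libraries had a median of 0.88 in these genes and 0.36 over all genes. In the first replicate at 5 mM the second library was lower than the first in 9 of 10 genes, by a median of -1.81 (log2). In the second and the third replicate at 5 mM it was lower in 10 of 10, by medians of -0.97 and -0.52. At 25 mM it was lower in 8 of 10 in the first replicate (median -0.55), but in only 1 of 10 in the second (median +3.28) and in 0 of 10 in the third (median +0.90). The medians over all genes lay between -0.05 and +0.02 in the 6 replicates.

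The second replicate at 25 mM stood out. Cdh5 was measured there at 3.09 CPM in the first library and at 122 CPM in the second, Pecam1 at 18.7 and 184 CPM, and Tek at 8.80 and 94.2 CPM. Flt1, at 64.0 and 178 CPM, and Esam, at 13.8 and 45.8 CPM, differed less, and Kdr, at 235 and 213 CPM, least. This first library also had the fewest counts of all, 14815285. Its mitochondrial share was the largest, 15.4%, where the other libraries had 5.91% to 11.8%. The part of depth and mitochondrial share in the low endothelial values was not tested. Gene lists described below also differed between these libraries. Further endothelial genes summed to 441.7 CPM in the first library and 1743 CPM in the second. Mural cell genes had 274.2 and 673.5 CPM, and fibroblast genes 25.33 and 165.3 CPM. Only the rod list was lower in the second library, with 11670 and 5005 CPM. Pigment epithelium genes hardly differed, at 5.074 and 5.085 CPM. These sums were not tested.

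**Figure D3:**
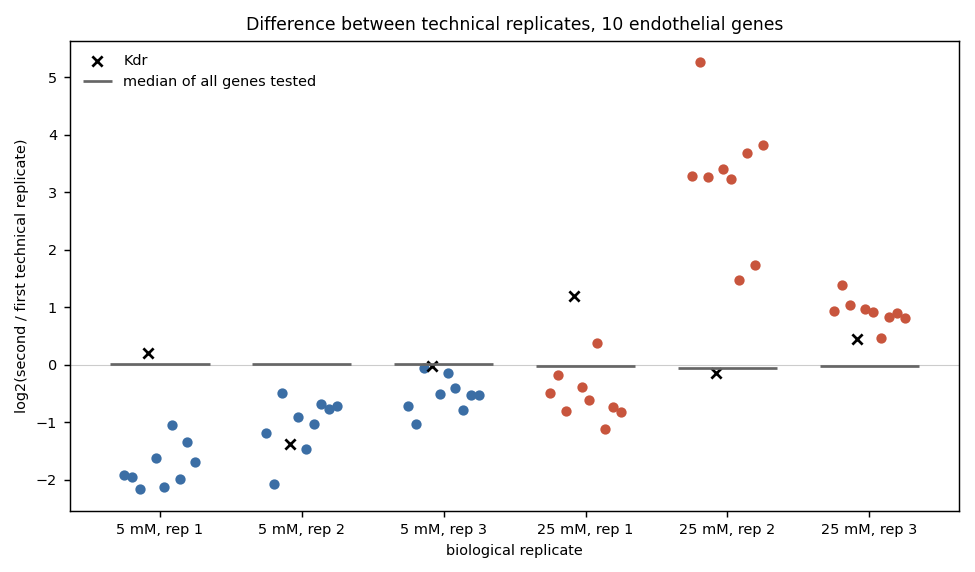
Log2 ratio of the second to the first technical replicate for the 10 genes in each biological replicate (points; Kdr as a black cross) and the median over all genes tested (grey bars). Medians of the 10 genes run from -1.81 to -0.52 at 5 mM and reach +3.28 and +0.90 in the second and the third replicate at 25 mM, while the grey bars stay near 0.

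A shift common to all second libraries was looked for with the biological replicate as a block. By edgeR 0 of the 10 genes had such a batch shift with an FDR under 0.05, 0 had an unadjusted p under 0.05, limma-voom called 0, and 0% of 18725 genes were called by edgeR. The log2 fold change with glucose of all 10 genes was higher in batch 2 than in batch 1. That difference passed an FDR under 0.05 in 0 of 10 genes (limma-voom 0), again with 0% of all genes, and an unadjusted p under 0.05 in 6 of 10, against 16.3% of all genes. The lowest p was that of Flt1, whose log2 fold change was higher by 1.60 ± 0.35 in batch 2 (adjusted p = 0.173, edgeR), and the largest difference that of Cdh5, 3.60 ± 1.22 (adjusted p = 0.239, edgeR).

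Within batch 1 alone 9 of the 10 genes were called lower at an FDR under 0.05, as were 10.1% of all genes, with a median log2 fold change of -2.61 over the 10. Kdr was the gene not called, at -0.45 ± 0.28 (adjusted p = 0.288, edgeR). Within batch 2 alone 0 of 10 were called, as were 0% of all genes, and the median was -0.50. The largest differences there were those of Tie1, at -1.66 ± 0.88 (adjusted p = 0.454, edgeR), and of Cldn5, at -1.58 ± 0.94 (adjusted p = 0.485, edgeR), and Flt1 was at -0.06 ± 0.33 (adjusted p = 0.938, edgeR).

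The levels of the genes went together from library to library. Over the 12 libraries, which pair up by biological replicate and differ in glucose and batch, Pearson's r of log2 CPM ranged from 0.856 to 0.993 (median 0.961) in the 36 pairs that leave out Kdr. For Kdr it ranged from -0.12 to 0.24. Against the mean of the other members, r was 0.996 for Pecam1, 0.990 for Cdh5, 0.937 for Cldn5 and -0.00135 for Kdr. Of 16401 genes with a mean of at least 1 CPM, those most like the mean of the 10 genes were Mcam, Adcy4, F11r, Tnfaip8l1, Cdk2, Cxcr4, Stat6, Pdlim1, Tead4 and Ednra, with r between 0.993 and 0.996. Mcam, an adhesion molecule of vessel cells, had a log2 fold change with glucose of -1.81 ± 0.53 (adjusted p = 0.0839, edgeR) and Cxcr4, the receptor of the chemokine CXCL12, -2.21 ± 0.60 (adjusted p = 0.0741, edgeR).

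The transcripts of Flt1 were divided into the 2 forms whose diverging sequences are printed above. The soluble form held 48.7%, 34.0% and 36.0% of the coding Flt1 counts in the 3 replicates at 5 mM and 44.7%, 52.2% and 47.9% at 25 mM. The first replicate at 5 mM lay among those at 25 mM, so the groups overlapped. The mean share was 39.6% ± 7.98 (SD, n = 3) at 5 mM and 48.3% ± 3.75 (SD, n = 3) at 25 mM, a difference of 8.69 percentage points (exact permutation test, two-sided, p = 0.3, where 3 against 3 replicates cannot give less than 0.1). The shares rest on 10209 to 12459 estimated counts per replicate at 5 mM and 3613 to 6888 at 25 mM, which the counting tool divided between overlapping transcripts.

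**Figure D4:**
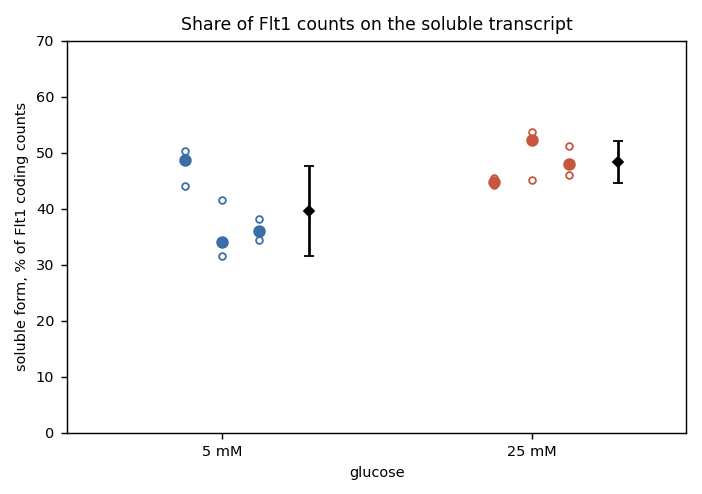
Share of coding Flt1 counts on the soluble transcript (%), by glucose concentration. Filled points are biological replicates, open points their technical replicates, and the diamond with its bar the mean ± SD of 3 replicates. The filled points range from 34.0% to 48.7% at 5 mM and from 44.7% to 52.2% at 25 mM, and overlap.

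Other genes of the same cells were counted from lists. The shares to set beside the calls of every list are 0.513% of all genes called lower and 1.47% called higher. Of 30 further endothelial genes, all tested, 29 had a lower mean at 25 mM and 0 were called at an FDR under 0.05, with a median log2 fold change of -1.65. The most abundant were Cd34, a surface sialomucin, with a log2 fold change of -1.29 ± 0.49 (adjusted p = 0.134, edgeR), and Adgrl4, an adhesion receptor, with -1.82 ± 0.53 (adjusted p = 0.0827, edgeR). The exception was Podxl, named after its values were seen, which encodes podocalyxin and had +0.35 ± 0.20 (adjusted p = 0.269, edgeR).

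Of 16 ligands and partners of the VEGF and TIE receptors, 15 were tested, 1 was called lower, beside 0.513% of all genes, and 0 higher, and the median log2 fold change was -1.16. The one called was Nrp1, a co-receptor of VEGFR2, with 40.9, 58.9 and 54.5 CPM at 5 mM and 11.9, 18.6 and 24.2 CPM at 25 mM. Its log2 fold change was -1.49 ± 0.28 (adjusted p = 0.0456, edgeR). The call was lost without 5 mM replicate 2 (adjusted p = 0.153, edgeR) or 3 (0.174), 25 mM replicate 1 (0.129) or 2 (0.177), or the first library of the last (0.132), and within batch 2 (0.505). It was also lost with library totals in place of TMM (adjusted p = 0.0519, edgeR) and with summed transcripts (0.0532), and it held in 13 of 21 alternatives. Named after their values were seen, the ligand Vegfa had -0.29 ± 0.24 (adjusted p = 0.455, edgeR) with overlapping groups, and the third VEGF receptor, Flt4, -2.23 ± 0.59 (adjusted p = 0.0728, edgeR). Angpt2, the TIE2 ligand made by endothelial cells, had -2.11 ± 0.58 (adjusted p = 0.075, edgeR), also named after its values were seen.

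Of 20 genes of the blood-retina barrier, its transporters and Norrin signaling, 1 was called lower, beside 0.513% of all genes. None was called higher, beside 1.47% of all genes, and the median was -1.04. The gene called was Plvap, which encodes the diaphragm protein of fenestrated and leaky vessels, with a log2 fold change of -2.35 ± 0.47 (adjusted p = 0.0494, edgeR). It had 5.15, 15.2 and 9.32 CPM at 5 mM and 1.37, 1.56 and 2.87 CPM at 25 mM, so all its values were low. It was called in 9 of 21 alternatives. The call was lost with RLE factors (adjusted p = 0.05, edgeR) or library totals (0.0564) in place of TMM, and with limma-voom. It was lost too with a filter of 1 CPM in 3 samples, technical replicates scaled to equal depth, or summed transcripts. Nor was it called without 5 mM replicate 2 or 3, 25 mM replicate 1 or 2 or the first library of the last. The same held within batch 2, where its adjusted p of 0.419 (edgeR) was the highest. Plvap is known as a mark of vessels without a tight barrier, unlike most of this list.

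Of 14 intracellular and transmembrane partners of the junction genes 0 were called in either direction, with a median of -0.58. The most abundant, Ctnnb1 (β-catenin), had -0.63 ± 0.20 (adjusted p = 0.099, edgeR) and Tjp1 (ZO-1) -0.53 ± 0.17 (adjusted p = 0.0954, edgeR), and both are also made by other retinal cells. Of 21 arterial, venous and tip cell genes 0 were called and 19 had a lower mean at 25 mM, with a median of -0.96. Vcam1, a leukocyte adhesion molecule, had +0.20 ± 0.26 (adjusted p = 0.634, edgeR), and Efnb2, a ligand found on arteries, -0.83 ± 0.20 (adjusted p = 0.0645, edgeR).

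Genes of other cells were counted in the same way, and only Col3a1 and 6 rod genes passed the test. Of 14 mural cell genes (pericytes and smooth muscle) 12 had a lower mean at 25 mM, 0 were called and the median was -1.49; their summed level was 588 to 917 CPM in the replicates at 5 mM and 282 to 565 CPM at 25 mM. Rgs5, a pericyte gene and the most abundant of the list, had +0.09 ± 0.22 (adjusted p = 0.792, edgeR) and Mcam is given above. Of 12 microglia genes 12 had a lower mean and 0 were called, with a median of -1.03 and summed levels of 315 to 460 CPM at 5 mM and 135 to 267 CPM at 25 mM. Of 6 fibroblast genes 6 had a lower mean and 1 was called lower, beside 0.513% of all genes. The gene called was the collagen gene Col3a1, with -2.36 ± 0.37 (adjusted p = 0.0326, edgeR). It was called in 15 of 21 alternatives, and lost in those 6 in which 0 genes of the whole table were called: without 5 mM replicate 2 or 3, 25 mM replicate 1 or 2 or the first library of the last, and in batch 2, with adjusted p up to 0.395 (edgeR). Their summed level was 199 to 222 CPM at 5 mM and 37.7 to 145 CPM at 25 mM.

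Of 13 rod photoreceptor genes 13 had a higher mean at 25 mM and 6 were called higher, against 1.47% of all genes, with a median of +1.06. Their summed level was 3316 to 5964 CPM at 5 mM and 7315 to 9630 CPM at 25 mM. The largest differences among those called were in Cnga1, a subunit of the rod channel, +2.12 ± 0.29 (adjusted p = 0.0261, edgeR), Pde6b, a phosphodiesterase subunit, +1.65 ± 0.18 (adjusted p = 0.0217, edgeR), the rod factor Nrl, +1.33 ± 0.19 (adjusted p = 0.0261, edgeR) and Prph2, an outer segment protein, +1.28 ± 0.24 (adjusted p = 0.0456, edgeR). All 6 rod calls were lost without 5 mM replicate 2 or 3, or without 25 mM replicate 1 or 2. They were also lost without the first library of 25 mM replicate 2 and within batch 2 (adjusted p up to 0.391 for Cnga1, edgeR). That of Prph2 was lost as well without 25 mM replicate 3 (adjusted p = 0.0523, edgeR), with a replicate block and with summed transcripts. Pde6a, among the 6 and named after its values were seen, was also lost within batch 1 (adjusted p = 0.0625, edgeR). Prph2 was called in 12 of 21 alternatives, Pde6a in 14, and Cnga1, Pde6b and Nrl in 15 each. Of 10 Müller glia genes 0 were called, 6 had a lower and 4 a higher mean at 25 mM, and the median was -0.05. Their summed levels were 3715 to 4793 CPM at 5 mM and 2510 to 3712 CPM at 25 mM. These sums did not overlap, but the gap rests on Vim. Vim alone had 1264, 2204 and 2209 CPM at 5 mM and 472, 590 and 925 CPM at 25 mM. The most abundant were Vim, which encodes the filament protein vimentin and is also made by vessel cells, with -1.51 ± 0.33 (adjusted p = 0.0555, edgeR), and Glul, glutamine synthetase, with -0.35 ± 0.28 (adjusted p = 0.425, edgeR). Of 11 pigment epithelium genes 7 were tested and 0 called, at summed levels of 4.96 to 9.47 CPM, and of 5 red blood cell genes 2 were tested and 0 called, at 0.143 to 1.78 CPM in all replicates. The part of these other cell types in the endothelial values was not tested.

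**Figure D5:**
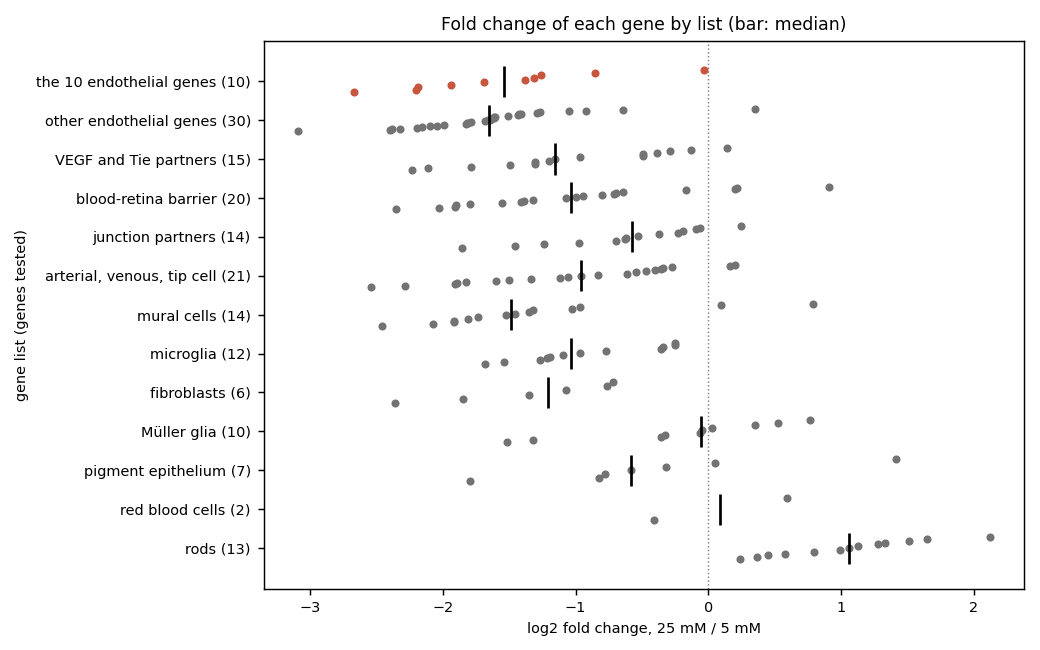
Log2 fold change (25 mM over 5 mM) of every tested gene in each list, with the number tested in parentheses and the list's median as a bar. The 10 endothelial genes (red, median -1.54) and the 30 other endothelial genes (median -1.65) lie left of 0 apart from Podxl, and Kdr lies next to 0; the rod genes (median +1.06) lie right of it.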

How the data were processed

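The authors deposited estimated counts (expected counts, with fractions) per gene and per transcript on GRCm38, not normalized and with technical replicates apart; the counting tool and its use of strand are not given in the sources used here. The kit was a stranded one for low inputs. Library totals were 14815285 to 36692484. They bear on counting error and, because unscaled counts were summed, on the weight of each technical replicate in its biological replicate. GENCODE M21 gave symbols to 48766 of 53707 genes (90.8%) and matched 134543 of 146263 transcripts; 0 columns were left out.

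Technical replicates were summed and rounded (the planned design spoke of counts), filtered with filterByExpr and scaled by TMM. The 3 replicates at each concentration were compared with edgeR 4.0.16 (quasi-likelihood test as in version 3, no replicate block) in R 4.3.3, with Benjamini-Hochberg adjustment over all 21061 genes. Technical replicates were compared over the 12 libraries with the biological replicate as block, adding a batch by glucose term for the difference between batches. Flt1 transcripts were classed by annotated coding end; shares were compared by an exact permutation test in Python 3.11.15 with scipy 1.17.1. The procedure was tested on simulated data. Alternatives were DESeq2 1.42.0, limma-voom (limma 3.58.1), edgeR's newer method, other scalings and filters, each batch alone, single libraries or replicates left out, a replicate block and summed transcripts.

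The 10 genes and all lists were chosen with earlier results of these data known. Named were the 10 genes; from each list the 4 called genes with the largest change or, with none called, the 2 most abundant; and the 10 genes most like the mean; others are marked. Spans of Cdh5 and an antisense gene overlap outside exons.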

Additional observations from a re-analysis of the deposited data

How the results depend on the processing

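The median log2 fold change of the 10 genes was below 0 under all 21 alternatives and moved by more than the spread between replicates within batch 1 (-2.61) and batch 2 (-0.50). The count called lower, 0 as reported, was 9 in batch 1, 8 with DESeq2, 7 with no filter on low counts (3.47% of 35141 genes), 3 with the 12 libraries as separate samples and a batch term (7.86%), which treats technical replicates as independent, 8 with a replicate block (2.78%), 4 without the second library of 5 mM replicate 1, and 0 to 7 with 1 replicate left out; it was 0 under 14 of the 21 alternatives, among them RLE factors, library totals, limma-voom and summed transcripts. In 6 alternatives (5 mM replicate 2 or 3, 25 mM replicate 1 or 2 or the first library of the last left out, and batch 2 alone) 0 of all genes were called in either direction. Apart from the settings that use fewer libraries, the cause was not tested. The labels do not say whether same-numbered replicates were matched. Over all genes tested they deviated from their group means with r of -0.01, -0.45 and 0.29. These values, from groups of 3, cannot settle it, so the block is not read as a paired analysis. All 10 genes but Kdr had a negative fold change under all 21 alternatives, and Kdr under 15. The batch by glucose difference passed in 1 gene, Flt1, with no filter (adjusted p = 0.0465, edgeR). The share of all genes passing in that setting is not given here, so this call is not read as a result about the 10 genes. The soluble Flt1 share was higher at 25 mM under all 9 alternatives, by 5.90 to 13.3 percentage points. The counting error of this share, on at least 3613 counts per replicate, was not compared with the spread between replicates.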

Other observations

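The library-to-library pattern of Kdr was set beside that of all genes after its values were seen. Over the 12 libraries, Pearson's r of log2 CPM with Kdr was highest for Sntb1 (0.857), a syntrophin of membrane scaffolds, and Tmem177 (0.855), among 16401 genes. The 12 libraries pair up by biological replicate and share batches and glucose concentrations, so these values describe the libraries only.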
